A study of Homo sapiens with 2 samples.

Results

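The genes described here are 48 genes of TGF-beta, BMP and SMAD signalling, from ligands and receptors to SMAD proteins, their ligases and corepressors, and a few target genes. They were chosen by name as members of the pathway, with earlier results of these data known, out of 64486 annotated genes, 20176 of them protein-coding. Binding of SMARCA4, an ATPase subunit of the SWI/SNF chromatin remodelling complex, was measured by ChIP-seq with an anti-FLAG antibody in TOV21G, an ovarian clear cell carcinoma cell line with mutated ARID1A, another SWI/SNF subunit. One library came from parental cells and 1 from EIR clone 3, an EZH2 inhibitor-resistant (EIR) clone selected by raising the dose of the EZH2 inhibitor GSK126 from 5 through 10 and 15 to 20 μM. In the cells used for ChIP, the endogenous SMARCA4 locus carried a FLAG tag followed by P2A and a puromycin resistance gene, and single colonies had been picked. With 1 library per condition and 1 resistant clone, resistance, clone and library cannot be told apart.

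TGF-beta, activin and BMP ligands bind heteromeric receptors with serine/threonine kinase activity. Type II receptors phosphorylate type I receptors, which phosphorylate the receptor-regulated SMADs. SMAD2 and SMAD3 act downstream of TGF-beta and activins and SMAD1, SMAD5 and SMAD9 downstream of BMPs, and they enter the nucleus with SMAD4. SMAD6 and SMAD7 inhibit the pathway, the SMURF ligases degrade its components, and SKI and SKIL repress transcription at SMAD-bound sites. TGF-beta slows the growth of many epithelial cells, and tumour cells often lose that response.

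The deposited lists hold only regions where 1 library exceeded the other, 10792 with more tags in parental cells (parental-higher) and 2104 with more in the EIR clone (EIR-higher). A tag is 1 aligned read. As estimated from the deposited region values, the libraries held about 25637000 tags from parental cells and 34974000 from the EIR clone. EIR tags are given below as the authors scaled them to the parental library, so that 1 tag counts as 0.733. A gene without a listed region may still bind SMARCA4 alike in both libraries. Each fold is the ratio of the libraries in a region that was listed because of that ratio, so the folds are descriptions. Ratios summed over a gene add listed regions only, so they are descriptions too and do not measure the whole gene. Intervals are 95% Clopper-Pearson intervals and cover counting error only. The p-values deposited with the regions compare 2 libraries, not conditions. For all 88 member regions the interval excluded a ratio of 1, which the selection of the lists largely fixed in advance.

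At the start sites of most of these genes SMARCA4 tags were lower in the EIR clone. Of the 48 genes, 35 (72.9%) had a region of either list within 1 kb of an annotated transcription start site (TSS), beside 24.6% of protein-coding genes. A parental-higher region lay at a TSS of 34 genes (70.8%, beside 23.2%), and an EIR-higher region at a TSS of 3 genes, BMP7, SMAD3 and ID2 (6.25%, beside 1.96%). Genes with many start sites have more chances to be counted: among those with at least 5 TSSs, 20 of 29 members (69.0%) had a region, beside 30.6% of protein-coding genes. Of the same 29, a parental-higher region was found at 19 (65.5%, beside 28.9%) and an EIR-higher region at 2 (6.90%, beside 2.45%). The 37 parental-higher TSS regions had a median fold of 2.59 (range 1.65 to 5.31), and the 4668 such regions at all protein-coding TSSs had a median of 2.54. Their median was 58 parental tags, beside 48, over a median length of 886 bp, beside 752 bp. The share of genes with a listed region thus exceeded the background share, the median fold lay near that of the class, and neither difference was tested.

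**Figure D1:**
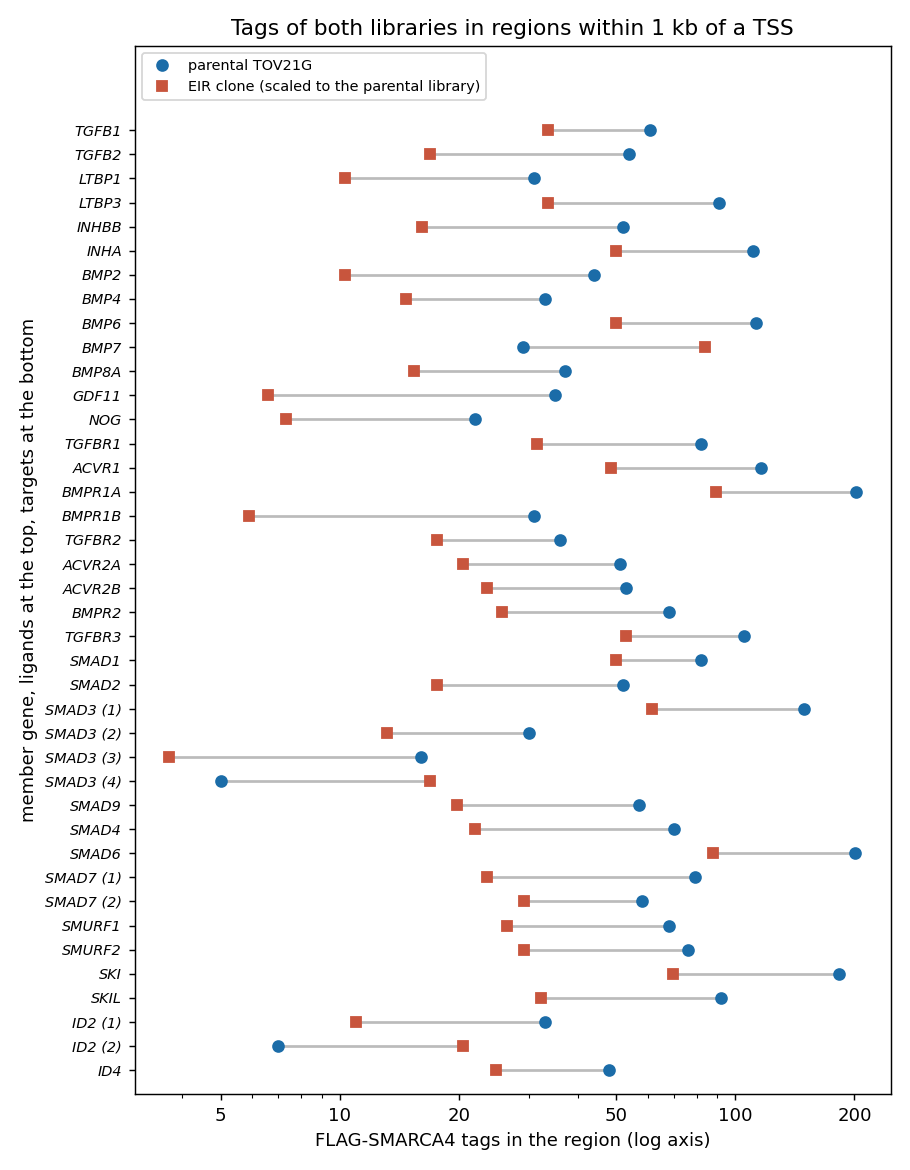
FLAG-SMARCA4 tags in each of the 40 regions within 1 kb of a TSS of a member gene, on a log axis, with the parental library as circles and the EIR clone, scaled to the parental library, as squares, and numbered rows where a gene had several regions. The parental circle lies to the right in 37 regions, and the EIR square lies to the right at BMP7 and at 1 region each of SMAD3 and ID2.

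Among the TGF-beta ligands, TGFB1, which encodes the most widely expressed isoform, held 61 parental and 33.7 scaled EIR tags at its TSS (chr19:41859258-41860140, hg19 as all coordinates here), a fold of 1.81 (1.21 to 2.71). TGFB2, another isoform, held 54 and 16.9 tags (chr1:218518645-218519473), a fold of 3.20 (1.93 to 5.47). These intervals overlapped. The TGFB1 region also lay within 1 kb of a TSS of TMEM91, and that of TGFB2 within 1 kb of a TSS of the antisense gene TGFB2-AS1, so neither can be assigned to the ligand gene alone. LTBP1 and LTBP3 encode proteins that hold latent TGF-beta in the extracellular matrix. LTBP1 held 31 and 10.3 tags (chr2:33172201-33173081), and LTBP3 held 91 and 33.7 tags (chr11:65324761-65325811). LTBP4, of the same family, had a region only inside the gene, with 33 and 14.7 tags (chr19:41109405-41109905).

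The activin and inhibin subunit genes were represented by INHBB, which encodes the beta B subunit, and INHA, which encodes the inhibin alpha subunit. INHBB held 52 and 16.1 tags in a region that ended 310 bp upstream of its TSS (chr2:121102310-121103402). INHA held 111 and 49.8 tags, 437 bp upstream (chr2:220435255-220436595), within 1 kb of a TSS of OBSL1 as well. Both regions were parental-higher and neither covered the start site.

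Of the 6 BMP and GDF ligand genes with a TSS region, 5 had more tags in parental cells and BMP7 had more in the EIR clone. BMP2, an osteogenic BMP, held 44 parental and 10.3 scaled EIR tags, a fold of 4.29 (2.31 to 8.47). GDF11, which encodes a ligand close to myostatin, had the largest fold of the members' TSS regions, 5.31 (2.5 to 12.6), with 35 and 6.6 tags over an alternative TSS, from 72 bp downstream of the canonical one (chr12:56136978-56137478). BMP4 held 33 and 14.7 tags (chr14:54423574-54424074). BMP6, related to BMP7, held 113 and 49.8 tags (chr6:7726259-7728191). BMP8A held 37 and 15.4 tags (chr1:39956691-39957475). NOG encodes noggin, a secreted BMP antagonist, and held 22 and 7.3 tags (chr17:54671027-54671527).

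At BMP7, which encodes a BMP with roles in kidney and epithelial tissue, the difference ran the other way. Its region held 29 parental tags and 114 EIR tags, 83.6 after scaling, which is 2.88-fold (1.90 to 4.50) more in the EIR clone. It spanned 2614 bp of intron 1 (chr20:55838037-55840651), starting 1046 bp downstream of the canonical TSS and lying 183 bp from an alternative one. This was the longest of the 383 EIR-higher regions at protein-coding TSSs and the 4th by tags. Its fold was below their median of 3.37. BMP7 also had 3 EIR-higher regions further into the gene and no parental-higher region, and over all 4 regions it held 51 parental and 153.2 scaled EIR tags, a parental to EIR ratio of 0.333 (0.240 to 0.454). Among protein-coding genes, 22 had at least 4 EIR-higher regions, and 12 of these had no parental-higher one. The 300 bases at the centre of the BMP7 region are shown, as the member region with the most EIR tags among those higher in the EIR clone. They are GRCh37 (hg19) sequence on the gene's strand, outside annotated exons, chr20:55839194-55839493 (minus strand), and capitals mark TGTCTG, the reverse complement of the CAGACA box that SMAD3 and SMAD4 can bind.
BMP7: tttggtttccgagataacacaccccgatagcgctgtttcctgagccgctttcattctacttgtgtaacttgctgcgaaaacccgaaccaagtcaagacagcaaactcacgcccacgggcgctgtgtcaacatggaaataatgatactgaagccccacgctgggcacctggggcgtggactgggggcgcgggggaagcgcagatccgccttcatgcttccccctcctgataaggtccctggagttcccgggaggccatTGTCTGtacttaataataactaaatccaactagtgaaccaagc
The BMP7 sequence had a GC content of 53.7% and 1 CAGACA box on the strand opposite to the gene.

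Every receptor gene with a TSS region had more tags in parental cells. This is the direction of most listed regions at protein-coding TSSs, 4668 parental-higher beside 383 EIR-higher. Of the type I receptors, TGFBR1, the TGF-beta type I receptor, held 82 parental and 31.5 scaled EIR tags (chr9:101867181-101868193), a fold of 2.60 (1.78 to 3.86). BMPR1A, a BMP type I receptor, had the highest tag count of any member region, not corrected for length, 202 against 89.4 (chr10:88516279-88518015), a fold of 2.26 (1.80 to 2.85) and rank 28 of 4668 by parental tags. BMPR1B, another BMP type I receptor, held 31 and 5.9 tags (chr4:95678785-95679643), a fold of 5.29 (2.38 to 13.3) in a region shared with BMPR1B-DT. ACVR1, which encodes the receptor ALK2, held 116 and 48.4 tags (chr2:158732140-158734224). ACVR1B, an activin type I receptor, had regions only inside the gene, with 52 and 24.9 tags in the larger (chr12:52367815-52369247) and 27 and 8.8 in the other (chr12:52365177-52365809).

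Among type II receptors, TGFBR2, which binds TGF-beta and is often lost in tumours, held 36 and 17.6 tags at its TSS (chr3:30648014-30648514), a fold of 2.05 (1.19 to 3.59). The activin receptor genes ACVR2A and ACVR2B held 51 against 20.5 tags (chr2:148601224-148602138) and 53 against 23.5 tags (chr3:38495504-38496258). BMPR2, the BMP type II receptor, held 68 and 25.7 tags (chr2:203240716-203241536). TGFBR3 encodes betaglycan, a coreceptor that presents TGF-beta 2 and inhibin, and held 105 and 52.8 tags (chr1:92350751-92352051), a fold of 1.99. The folds of the 4 type II receptor genes, 2.05 to 2.65, lay within each other's counting intervals. The BMPR1B sequence (GRCh37, chr4:95679220-95679519, plus strand, intron 1) is given as a start-site region with a large fold, with a GC content of 81.7% and without a CAGACA box.
BMPR1B: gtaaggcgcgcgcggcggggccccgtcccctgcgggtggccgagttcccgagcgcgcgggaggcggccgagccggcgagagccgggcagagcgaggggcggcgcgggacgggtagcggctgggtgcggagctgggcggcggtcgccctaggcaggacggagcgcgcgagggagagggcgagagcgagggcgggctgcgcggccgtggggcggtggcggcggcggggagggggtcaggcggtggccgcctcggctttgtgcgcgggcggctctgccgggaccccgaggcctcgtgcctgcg

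All SMAD genes apart from SMAD5 had a TSS region. SMAD2, a TGF-beta and activin SMAD, held 52 and 17.6 tags at its TSS (chr18:45456982-45457678). SMAD4, the common partner SMAD, held 70 and 22.0 tags (chr18:48556378-48557378), a fold of 3.18. SMAD9, a BMP SMAD, held 57 and 19.8 tags (chr13:37493244-37494318). SMAD1, the other BMP SMAD with a region, had the smallest fold of the members' TSS regions: 82 and 49.8 tags (chr4:146403275-146403909), a fold of 1.65 (1.18 to 2.30), which ranked 4641 of 4668. Its interval was the only 1 of 37 that did not hold the median fold of 2.54. SMAD1 was singled out as the lowest of the 37 folds, so this is a description, and no difference from other genes was tested. Per length, the same SMAD1 region was the densest of the members' TSS regions, at 129.3 parental tags per kb beside a class median of 64.2.

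The inhibitory SMADs were both parental-higher at the TSS, the direction of most listed regions at protein-coding TSSs. SMAD6 held 201 and 88.0 tags (chr15:66995079-66996671), a fold of 2.29 and rank 31 of 4668 by parental tags. SMAD7 had a region at its canonical TSS with 79 and 23.5 tags (chr18:46476518-46477404), a fold of 3.37, and another at an internal TSS with 58 and 29.3 tags (chr18:46458514-46460182), a fold of 1.98.

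SMAD3, the SMAD that mediates much of the transcriptional response to TGF-beta, had regions of both directions. Its canonical TSS held 149 and 61.6 tags (chr15:67357643-67359031), a fold of 2.42. Parental-higher regions also lay at 30 and 13.2 tags (chr15:67360788-67361288) and at 16 and 3.7 tags (chr15:67389956-67390456) near alternative start sites. In intron 5, about 108 kb downstream of the canonical TSS and 592 bp from an alternative one, a region of 500 bp held 5 parental and 16.9 scaled EIR tags (chr15:67465549-67466049), 3.37-fold (1.25 to 11.4) more in the EIR clone. With 8 further parental-higher regions inside the gene, SMAD3 had 12 regions, rank 27 of 20176 protein-coding genes, and 462 parental against 204.5 scaled EIR tags in all, a ratio of 2.26 (1.94 to 2.63). The EIR-higher intron 5 region therefore stood beside 11 parental-higher regions of the same gene. Its central 300 bases (GRCh37, chr15:67465649-67465948, plus strand) are shown with the CAGACA box, read as TGTCTG, in capitals.
SMAD3: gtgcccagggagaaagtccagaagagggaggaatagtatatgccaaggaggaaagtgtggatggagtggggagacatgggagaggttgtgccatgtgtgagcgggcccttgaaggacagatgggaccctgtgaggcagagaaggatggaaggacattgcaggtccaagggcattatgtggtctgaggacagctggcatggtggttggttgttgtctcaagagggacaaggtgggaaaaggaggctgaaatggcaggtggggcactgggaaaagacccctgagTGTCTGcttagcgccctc

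The ubiquitin ligase genes SMURF1 and SMURF2, whose products target SMADs and receptors, were both parental-higher at the TSS. Most listed regions at protein-coding TSSs had that direction. SMURF1 held 68 and 26.4 tags (chr7:98740975-98741959), and SMURF2 held 76 and 29.3 tags (chr17:62657754-62658786). The corepressor gene SKI held 183 and 69.6 tags over 2502 bp (chr1:2158575-2161077), a fold of 2.63 (2.04 to 3.40), with the smallest deposited p-value of the members, 1.32e-29. Its relative SKIL held 92 and 32.3 tags (chr3:170074167-170075493). The folds of these 4 genes, 2.58 to 2.85, lay within each other's counting intervals.

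ID genes encode helix-loop-helix inhibitors of differentiation and are BMP targets. ID2 had neighbouring regions of opposite direction. Each also lay within 1 kb of a TSS of the antisense gene ID2-AS1, so neither can be assigned to ID2 alone. The parental-higher region, 536 bp upstream of the nearest ID2 TSS, held 33 and 11.0 tags (chr2:8821150-8821650), a fold of 3.00. The EIR-higher region, over an alternative TSS and exon 2, held 7 and 20.5 tags (chr2:8822735-8823235), 2.93-fold (1.25 to 7.95) more in the EIR clone. Summed, ID2 held 40 parental and 31.5 scaled EIR tags, a ratio of 1.27 (0.804 to 2.0) whose interval included 1. ID4 held 48 and 24.9 tags at its TSS (chr6:19837634-19838270). An EIR-higher region 1317 bp from the nearest ID4 TSS held 14 and 31.5 tags (chr6:19838918-19839418). That region lay within 1 kb of a TSS of LNC-LBCS, so it cannot be assigned to ID4 alone. Over its 3 regions ID4 held 85 and 62.3 tags, a ratio of 1.36 (0.998 to 1.87). At these genes the libraries thus differed in opposite directions within a few kilobases. The sums add regions selected for opposite differences, so an interval that holds 1 does not show that the genes were alike in the libraries. The neighbouring ID2 sequences (GRCh37, plus strand, outside exons) hold none of the searched motifs and so have no capitals (the CAGACA box of the EIR-higher region lies outside the stretch shown), chr2:8821250-8821549 of the parental-higher region and chr2:8822810-8822909 of the EIR-higher region.
ID2 parental-higher: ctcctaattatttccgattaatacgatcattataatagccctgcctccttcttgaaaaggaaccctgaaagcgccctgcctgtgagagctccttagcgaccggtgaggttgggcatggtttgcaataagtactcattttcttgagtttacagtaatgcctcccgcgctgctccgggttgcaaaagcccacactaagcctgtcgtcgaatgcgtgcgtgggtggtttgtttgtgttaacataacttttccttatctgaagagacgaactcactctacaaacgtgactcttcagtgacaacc
ID2 EIR-higher: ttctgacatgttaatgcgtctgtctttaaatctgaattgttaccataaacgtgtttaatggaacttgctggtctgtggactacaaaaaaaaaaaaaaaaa

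**Figure D2:**
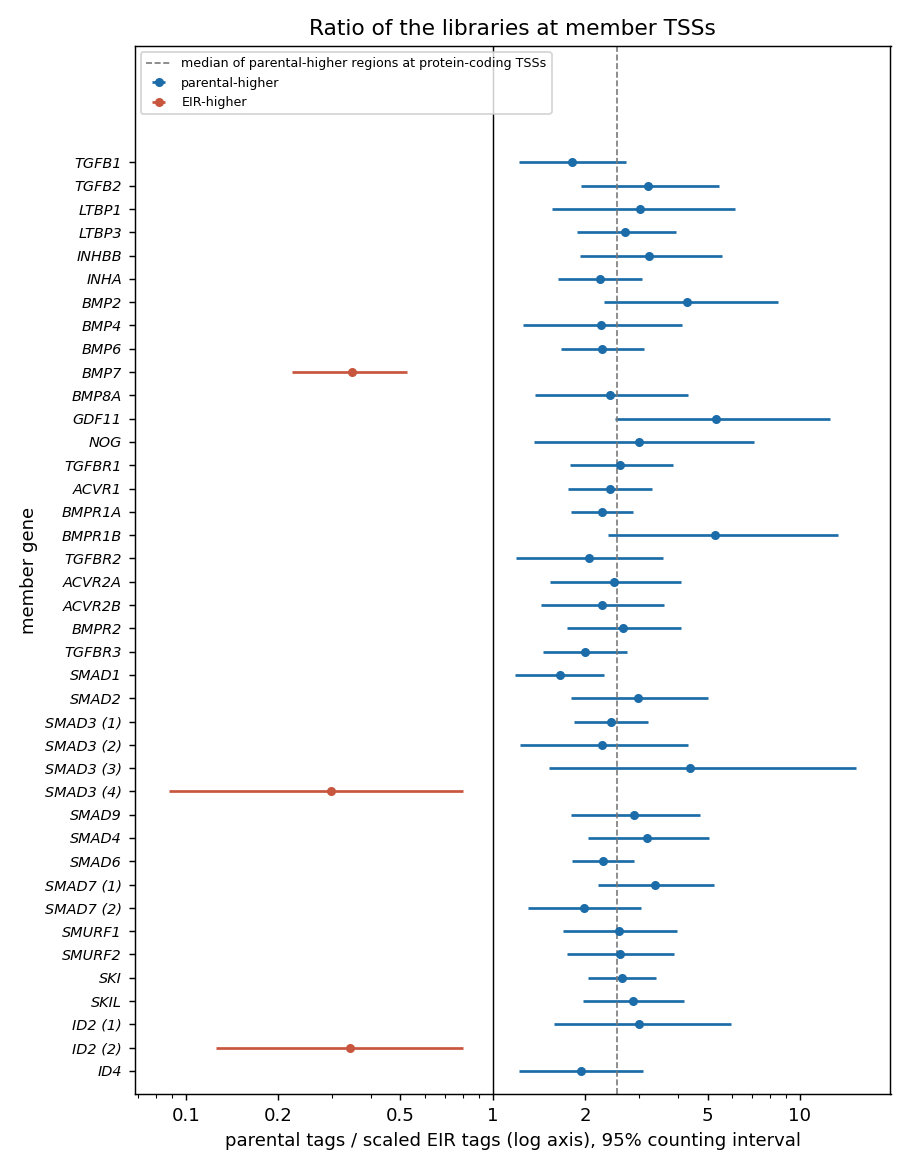
Ratio of parental to scaled EIR tags in each TSS region with its 95% counting interval, on a log axis, with a solid line at a ratio of 1 and a dashed line at 2.54, the median of parental-higher regions at protein-coding TSSs. Every interval lies clear of 1, and of the 37 parental-higher intervals that of SMAD1 alone misses the dashed line.

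The largest folds rested on few tags. The 8 parental-higher TSS regions with at least 100 parental tags had folds of 1.99 to 2.63, with a median of 2.28, beside 2.37 for all 643 such regions at protein-coding TSSs. Across the 37 regions fold and parental tags had a Spearman rho of -0.346, beside -0.371 across all 4668. This is a description across regions of the same 2 libraries, and both quantities share the parental count.

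Most regions sat on the start site itself. Of the 40 TSS regions, 29 covered a TSS of the gene and 20 the canonical one, and 17 of these 20 extended further downstream than upstream. A TSS of another gene lay within 1 kb of 12 regions, so these cannot be assigned to the member alone. They were the regions at TGFB1, TGFB2, INHA, ACVR1, ACVR2B, BMPR1A, BMPR1B, BMPR2, SMAD4, the canonical TSS of SMAD3, and both at ID2. At the 1 kb limit, the SMAD3 region with 30 and 13.2 tags was furthest inside at 665 bp, and the SMAD7 region with 35 and 16.9 tags (chr18:46454865-46455365) was the nearest outside at 1187 bp.

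**Figure D3:**
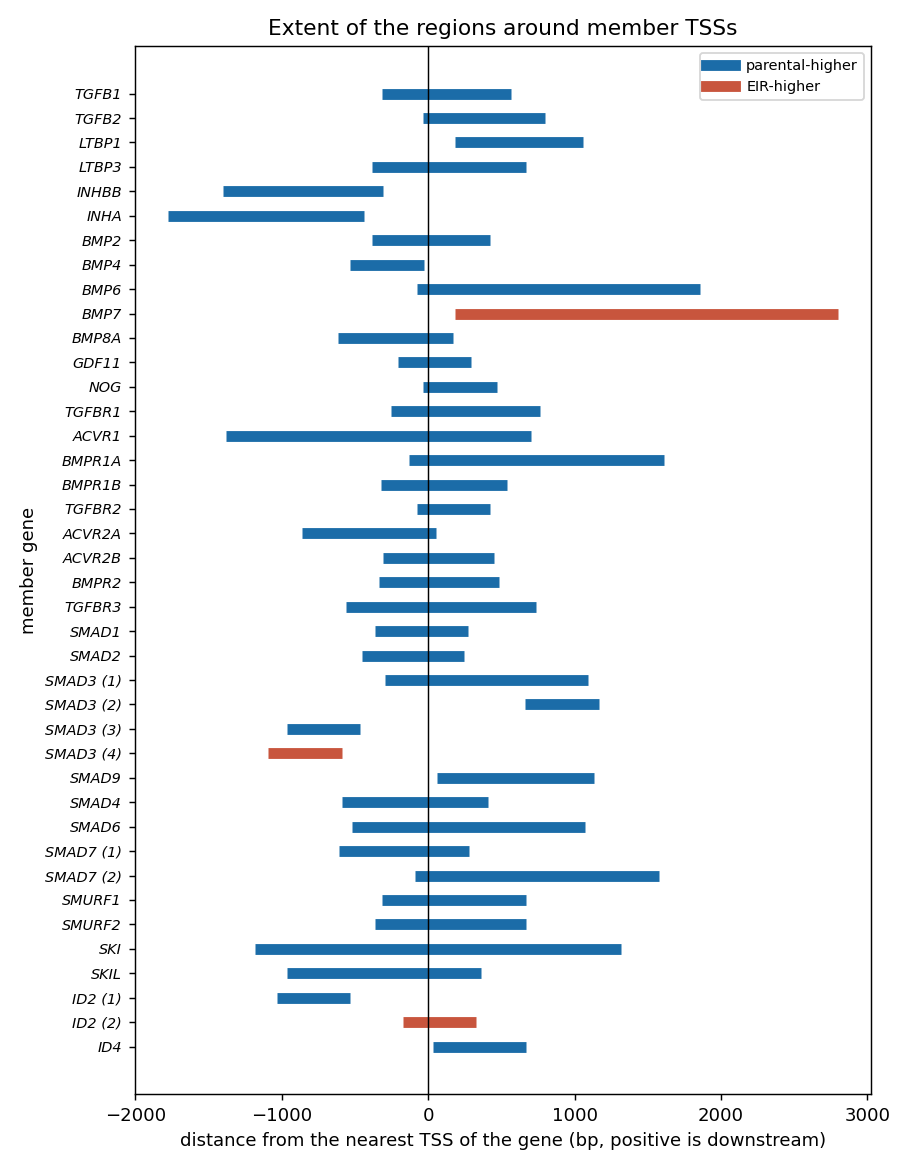
Extent of each TSS region relative to the nearest TSS of its gene, in bp with positive values downstream, blue for parental-higher and red for EIR-higher regions. The bars cross 0 in 29 of 40 regions, and the BMP7 bar is the longest at 2614 bp.

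Elsewhere in the gene bodies, 15 members (31.2%) had a region, beside 11.6% of protein-coding genes. A parental-higher region was found in 14 (29.2%, beside 9.22%) and an EIR-higher region in 3 (6.25%, beside 3.13%). Long genes offer more room. Among genes of at least 50 kb, 10 of 24 members (41.7%) had such a region, beside 24.2% of protein-coding genes. Parental-higher regions lay in 9 of these 24 (37.5%, beside 19.7%) and EIR-higher regions in 2 (8.33%, beside 6.55%). The 43 parental-higher regions had a median fold of 2.88 at 23 parental tags, and the 3273 of all protein-coding genes a median of 3.07 at 22 tags. The shortest possible length, 500 bp, was that of 32 of the 48 regions.

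SMAD2 had 7 of these regions, all parental-higher, and over its 8 regions held 216 parental and 66.0 scaled EIR tags, a ratio of 3.27. SMAD6 had 6 parental-higher regions and 1 EIR-higher region, with 6 and 19.8 tags (chr15:67057191-67057691), which lay between parental-higher ones at 44 and 22.0 tags (chr15:67055359-67055859) and at 19 and 5.9 tags (chr15:67059316-67059816). BMPR1A had 4 regions, up to 66 and 30.8 tags (chr10:88545443-88546083), and SMURF2 had 4 with 19 to 21 parental tags. The widest TGFBR2 region, 1728 bp, held 57 and 15.4 tags (chr3:30675361-30677089), while the 500 bp at its TSS held 36 and 17.6. Per length the TSS region was therefore the denser one in parental cells. TGFBR2 had 2 other such regions, TGFB2 and SMAD7 had 2 each, and BMPR2 and SKIL had 1 each, all parental-higher. ID4 had 1 parental-higher region of 23 and 5.9 tags (chr6:19841389-19842041). The 3 BMP7 regions inside the gene held 12 and 33.7 (chr20:55787477-55788267), 5 and 19.1 (chr20:55823306-55823806) and 5 and 16.9 tags (chr20:55830033-55830533), each higher in the EIR clone.

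The widest ratio inside a gene was at SMURF1, where a region of intron 1 held 18 parental tags and 1 EIR tag (chr7:98710312-98710812), a ratio of 24.6 with a counting interval of 3.88 to 1023. It shared rank 3 of 3273 by fold. Its central 300 bases (GRCh37, chr7:98710412-98710711, minus strand) are shown. They had no searched motif and a GC content of 29.3%, beside a median of 43.7% for parental-higher regions inside protein-coding genes.
SMURF1: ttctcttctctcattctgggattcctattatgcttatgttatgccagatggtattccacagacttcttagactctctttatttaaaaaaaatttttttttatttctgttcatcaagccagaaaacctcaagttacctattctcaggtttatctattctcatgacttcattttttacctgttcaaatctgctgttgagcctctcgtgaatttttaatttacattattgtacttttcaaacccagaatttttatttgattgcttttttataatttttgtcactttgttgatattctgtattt

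**Figure D4:**
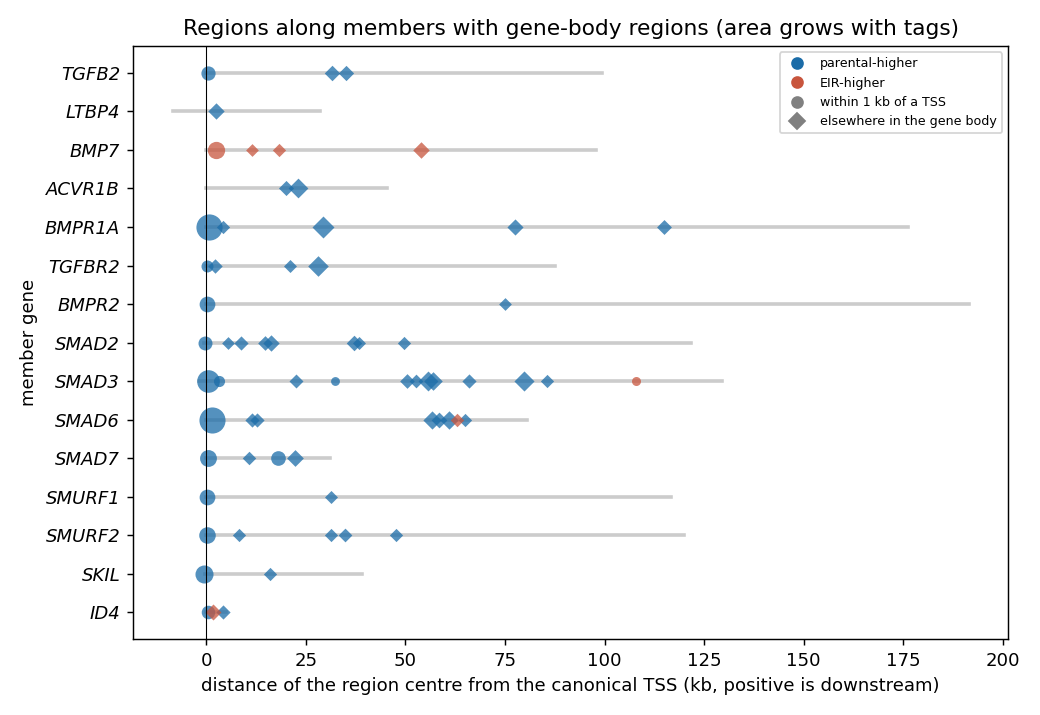
Regions along the 15 genes with a region away from their own TSSs, placed by the centre's distance from the canonical TSS in kb. Circles mark TSS regions, diamonds mark other regions, and the area grows with the tags. SMAD2, SMAD3 and SMAD6 carry 8, 12 and 8 regions, and red marks, for EIR-higher regions, make up all of BMP7 and single regions of SMAD3, SMAD6 and ID4.

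No region of either list lay at a TSS or in the body of 11 genes: TGFB3, TGFBI, LTBP2, INHBA, GDF15, NODAL, GREM1, SMAD5, ID1, ID3 and FST. Near ID1, a BMP target, the closest region was 2770 bp from a TSS with 40 and 13.9 tags. Near ID3, another, it was 3644 bp away with 118 and 66.7 tags. Near GDF15, which encodes a stress-induced ligand, it was 4727 bp away with 20 and 7.3 tags, and near TGFB3 it was 3567 bp away with 5 and 18.3 tags, more in the EIR clone. For the other 7 genes it lay at least 31433 bp away. The 11 genes had a median length of 24.9 kb. All members without a region inside the gene, these 11 included, had a median of 38.2 kb, and those with one 97.9 kb.

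The neighbourhoods of the genes varied. Of all listed regions, 16.3% were EIR-higher, and the other regions around BMP7 were 4 EIR-higher and 10 parental-higher within 1 Mb, 5 and 17 within 2 Mb, and 10 and 54 within 5 Mb. Within 1 Mb, SMAD3 had 23 parental-higher and 1 EIR-higher region around it, BMPR1A 20 and 12, SKI 19 and 13, and NODAL 20 and 19. The regions counted around SMAD3 include those of SMAD6, which lies within 1 Mb, and the EIR-higher one is that of SMAD6. Chromosome 10, which holds BMPR1A and NODAL, had 27.1% EIR-higher regions and chromosome 20, which holds BMP7 and BMP2, 17.3%. The part of these neighbourhoods in the values of the genes was not tested.

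The bases under the regions were compared with those under all regions of the same class, in the central 300 bases on both strands. Parental-higher TSS regions of the members had a median GC content of 77.7%, beside 75.3%. The letters GGCGCC, a GC-rich motif that SMADs can bind, occurred in 23 of 37 (62.2%), beside 47.5% of the class, CAGACA in 5 (13.5%), beside 9.43%, and the AP-1 motif TGANTCA in 0, beside 3.47%. The EIR-higher TSS regions of BMP7, SMAD3 and ID2 each held a CAGACA box (3 of 3), beside 18.5% of 383. Inside genes, AP-1 occurred in 3 of 43 parental-higher regions (6.98%), beside 11.9%, and CAGACA in 8 (18.6%), beside 19.3%. These are matches of letters in short windows, and 3 regions are too few to set their share apart from the class.

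Beyond these members, 74 other genes of the pathway, all found in the annotation, were counted in the same way. A TSS region was found in 27 (36.5%), beside 24.6% of protein-coding genes and 72.9% of the members. It was parental-higher in 26, beside 23.2% of protein-coding genes, and EIR-higher in 1, beside 1.96%, while 3 more had a region only inside the gene, and 44 had none. The median fold of their 34 parental-higher TSS regions was 2.62. By parental tags BAMBI, a pseudoreceptor gene, led with 222 and 120.2 tags, a fold of 1.85 (1.50 to 2.27). ZEB1, a repressor of epithelial genes, held 192 and 85.0 tags, and FURIN, a protease that processes TGF-beta precursors, 175 and 85.8. The EIR-higher one was GDF10, a BMP-related ligand gene, with 4 and 15.4 tags, 3.85-fold (1.30 to 15.4) more. Inside the gene, EIR-higher regions lay in BAMBI, with 8 and 26.4 tags, and in TLL2, a gene for a tolloid-like protease, with 5 and 20.5 tags (chr10:98247786-98248286). BAMBI, ZEB1, GDF10 and TLL2 all lie on chromosome 10. That chromosome held 1640 of the 12896 listed regions, more than any other, and 27.1% of them were EIR-higher, beside 16.3% of all. The part of the chromosome in the values of these genes was not tested.

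The calls depended on how the libraries were scaled to each other. With the EIR library scaled 1.5 times higher, 22 of the 37 parental-higher TSS regions (59.5%) still passed the Poisson threshold of the lists, recomputed from the tags, beside 33.9% of the 4668 at protein-coding TSSs. With it scaled 1.5 times lower, BMP7 alone of the 3 EIR-higher TSS regions did, beside 7.05% of 383. Regions inside the genes depended on it more. At the higher scaling 10 of 43 parental-higher ones (23.3%) passed, beside 25.2% of all parental-higher regions. At the lower scaling 0 of 5 EIR-higher ones passed, the 3 of BMP7 among them, beside 9.70% of all EIR-higher regions. Neither library had a replicate, and RNA levels were not analysed here.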

How the data were processed

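FLAG ChIP-seq libraries of 1 parental sample and 1 sample of EIR clone 3 were sequenced by the authors as single-end reads, aligned with Bowtie 0.12.9 to hg19, and compared with HOMER (version not given in the sources used here), each library serving as the control of the other. Tools are credited to the submitters' processing notes. The deposited files give, per region, the tag counts of the target library, a normalized signal per 10000000 tags, the tag counts of the other library scaled to it, the fold ratio between libraries and a Poisson p-value. The deposited HOMER peak score, clonal fold ratio and region size columns were not used. No input library enters these lists, and how duplicate reads were treated bears on every tag count.

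From these, whole EIR tags were recovered from the scaled values (all of 173 distinct values of at least 5 were whole multiples within 0.1 of a tag). Regions were assigned to genes of GENCODE release 44 lifted to GRCh37 when their nearest edge lay within 1 kb of any transcript TSS, and otherwise when they overlapped the gene body. A region near several genes counted for each. Ratios were given Clopper-Pearson intervals, and a two-sided exact binomial test with Benjamini-Hochberg adjustment over all 12896 regions passed at 0.05 for all 88 member regions. Every region had been listed for a deposited Poisson p-value of at most 9.99e-05. Passing was thus largely fixed in advance and says nothing particular about the members. One sequence is not reported here. The computations used Python 3.11.15, pandas 2.3.3, scipy 1.17.1 and pysam 0.24.0, and were tested on simulated data. Every member with a region was named with both libraries' tags, and of 74 further pathway genes the 3 with the most tags at a TSS in each direction (a single gene was EIR-higher at a TSS). EIR-higher regions inside such genes were named after their values were seen. The gene lists and members were chosen with earlier results of these data known. The lists hold differing regions only, so the cell line could not be checked against markers.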

Additional observations from a re-analysis of the deposited data

How the results depend on the processing

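No paired analysis was possible because each condition had 1 library, and for the same reason no replicate could be left out. For each of the 35 genes with a TSS region, the fold of the TSS region with the most tags was followed. None of these folds reversed under the alternatives tried. The folds of the EIR-higher TSS regions of SMAD3 and ID2 were not followed. The scalings of 1.5 times could not have reversed any, as the smallest fold at a TSS was 1.65. Summing all regions within 5 kb could have, and it moved ID2 from 3.00 to 1.525. Only listed regions were rescaled, so the lower EIR scaling could not change the parental-higher counts. The summed ratios per gene, the regions of LTBP4 and ACVR1B and the further pathway genes were not recomputed under the alternatives. Keeping regions with a fold of at least 4 left 4 genes with a TSS region (BMP2, BMPR1B, GDF11 and SMAD3), 4 of them parental-higher and 0 EIR-higher, with 5 genes having gene-body regions only and 39 having none, and raised the median fold to 4.83 at TSSs and 4.50 in gene bodies. A deposited p-value of at most 1e-06 left 1 gene with an EIR-higher TSS region and 17 without a region, and gave a gene-body median of 3.91. Scaling the EIR library 1.5 times higher left 22 genes with a parental-higher TSS region and 22 without any, with a TSS median of 1.78. Scaling it 1.5 times lower left 1 EIR-higher gene, with medians of 3.89 at TSSs and 4.32 in gene bodies. A window of 5 kb gave 6 EIR-higher genes, 1 gene with gene-body regions only and 7 without a region. Measuring from the region's centre gave 4 genes with gene-body regions only. Using the 5′ end of the gene alone gave 9 such genes and 0 EIR-higher ones. These 22 values moved because each alternative drops, admits or reassigns regions or rescales the folds. The remaining 62 stayed within the margin set (1.5 times for a count). Of the folds of single genes, 28 moved and 112 did not, and most moves came from the scaling (14 and 13). Depth limits the weakest regions, where the lower library held 1 to 7 tags.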
